A study of Mus musculus with 2 samples.

Results

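The cells described here are the mature neutrophils of injured mouse carotid arteries, the neutrophils in which Retnlg, Lcn2 and related genes were detected. The study sequenced RNA of single cells (10x, counting 3′ tags) from carotid arteries 18 h after a ligation injury, 1 library per genotype. The library with genotype CDH5 Cre+ Cx43fl/fl came from mice in which a Cre under the endothelial Cdh5 promoter is meant to remove floxed connexin 43 from endothelial cells. The library with genotype CDH5 Cre- Cx43fl/fl came from mice with the same floxed alleles and no Cre, so both groups carry Cx43fl/fl and both were injured. Arteries were removed without perfusion and digested whole for 20 min, so neutrophils of the blood and of the vessel wall cannot be told apart. Digests of the same condition were combined, so each library is 1 pool of mice and the study compares 1 library with 1 library. No p-value can be had from this design, and all intervals below are at 95% and cover counting error only.

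A barcode counted as a mature neutrophil where it passed 4 gates. It showed 300 or more genes, and no more than 15% of its UMIs (unique molecular identifiers, counted transcripts) were mitochondrial. At least 2 of the neutrophil genes Csf3r, Cxcr2, Il1r2, Hdc, Mxd1 and G0s2 were detected, and no UMI of Csf1r or Col1a2, genes of macrophages and fibroblasts. At least 3 of the 6 maturity genes Retnlg, Wfdc21, Lrg1, Lcn2, Mmp8 and Ifitm1 were detected. This gave 357 cells of 7712 kept barcodes in the Cre+ library and 381 of 6739 in the Cre- library, 738 of 14451 kept and of 15613 deposited barcodes in all. The members were chosen on their measured RNA, so the levels of these genes describe the choice and are no finding, and genes that vary together with them follow the choice in part. Neutrophils that passed the first 3 gates with fewer maturity genes, 863 in the Cre+ and 659 in the Cre- library, are called other neutrophils.

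Neutrophils leave the bone marrow after they have filled their granules with antimicrobial and matrix-degrading proteins, and they are among the first leukocytes to enter an injured artery. Transcripts made late in marrow maturation and in the blood, such as Retnlg, Lcn2, Mmp8 and the calprotectin subunits S100a8 and S100a9, decline in neutrophils that have entered tissue, while chemokine and NF-kB target transcripts increase on activation. Type I interferon induces a further set of antiviral genes in neutrophils, which can be detected beside either state. The transcription factors C/EBP-epsilon, C/EBP-beta and PU.1 drive much of the granule gene programme.

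The 6 maturity genes of the choice lie on 6 chromosomes of GRCm38 (GENCODE M21). Retnlg, a resistin-like secreted protein, is at chr16:48872621-48874496 on the plus strand, and Wfdc21, a whey acidic protein domain gene, at chr11:83746940-83752642, plus. Lrg1, a leucine-rich glycoprotein of neutrophil granules, is at chr17:56119678-56122001, minus. Lcn2, which binds bacterial siderophores, is at chr2:32384633-32388252, minus. The neutrophil collagenase gene Mmp8 is at chr9:7558456-7568485, plus, and Ifitm1, an interferon-inducible membrane protein, at chr7:140967221-140969825, plus. Promoters of 5 of the 6 were in the RefSeq table used here (GRCm38.p6), all but that of Wfdc21.

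The 250 bases before the RefSeq start are printed for 3 maturity genes, for S100a8 and S100a9, abundant genes of the members that the choice did not use, and for Isg15, one of the genes that differed most between the libraries. Capitals mark matches, on either strand, to the C/EBP motif TTGCNNAA or the PU.1 motif GAGGAAG in the first 5, and to the interferon response motif GAAANNGAA, where 3 matches overlap, in Isg15. The Lcn2 window lies inside the span of the gene in GENCODE.
Retnlg, chr16:48872358-48872607, plus strand: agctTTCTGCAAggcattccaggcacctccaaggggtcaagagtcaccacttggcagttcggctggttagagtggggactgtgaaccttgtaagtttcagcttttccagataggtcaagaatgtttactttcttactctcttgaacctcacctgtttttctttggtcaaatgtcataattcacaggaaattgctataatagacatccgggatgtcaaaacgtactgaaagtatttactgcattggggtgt
Lcn2, chr2:32387740-32387989, minus strand: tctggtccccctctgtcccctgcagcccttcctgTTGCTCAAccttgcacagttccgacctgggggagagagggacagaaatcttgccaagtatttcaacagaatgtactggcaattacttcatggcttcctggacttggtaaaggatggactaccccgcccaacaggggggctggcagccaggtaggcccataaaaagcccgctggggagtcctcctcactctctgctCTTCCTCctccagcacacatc
Mmp8, chr9:7558179-7558428, plus strand: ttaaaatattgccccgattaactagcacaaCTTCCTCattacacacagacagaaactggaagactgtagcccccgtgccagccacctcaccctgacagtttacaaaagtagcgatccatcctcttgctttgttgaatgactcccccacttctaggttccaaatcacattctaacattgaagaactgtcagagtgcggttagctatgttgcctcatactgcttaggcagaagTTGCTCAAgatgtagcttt
S100a8, chr3:90668821-90669070, plus strand: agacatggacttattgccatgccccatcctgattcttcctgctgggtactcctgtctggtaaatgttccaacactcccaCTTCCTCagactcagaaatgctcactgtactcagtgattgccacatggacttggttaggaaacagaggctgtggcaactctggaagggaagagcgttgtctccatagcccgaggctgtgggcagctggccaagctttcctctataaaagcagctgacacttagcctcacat
S100a9, chr3:90695722-90695971, minus strand: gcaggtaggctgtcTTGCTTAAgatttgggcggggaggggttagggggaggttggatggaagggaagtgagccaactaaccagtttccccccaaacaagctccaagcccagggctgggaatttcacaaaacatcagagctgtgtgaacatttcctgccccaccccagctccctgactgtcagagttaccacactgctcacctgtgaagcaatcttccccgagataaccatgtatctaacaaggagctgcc
Isg15, chr4:156200819-156201068, minus strand: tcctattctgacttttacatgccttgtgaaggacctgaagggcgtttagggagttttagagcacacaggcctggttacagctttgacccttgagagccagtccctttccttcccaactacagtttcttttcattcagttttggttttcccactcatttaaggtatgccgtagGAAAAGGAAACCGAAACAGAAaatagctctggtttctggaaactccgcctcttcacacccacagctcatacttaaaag

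The C/EBP motif was found in 3 of the 5 maturity gene promoters, those of Retnlg, Lcn2 and Mmp8, and in 9.56% of all 32851 promoters of the table over the same 250 bases. The PU.1 motif was in 2 of the 5, Lcn2 and Mmp8, against 10.6% of all promoters. The NF-kB motif GGANTTTCC was in none of the 5 and in 1.07% of all. S100a8 held a PU.1 match and S100a9 a C/EBP match, each 1. A match describes letters in a window and shows no binding.

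The label of mature neutrophils was set beside its markers. Of the 6 markers given for these cells, Retnlg, Wfdc21, S100a8, Lcn2, Mmp8 and Cxcr2, at least 2 were detected in 352 of 357 Cre+ members and 379 of 381 Cre- members. All but S100a8 also belong to the gates, so these counts follow largely from the choice and do not check the label. S100a8, which the choice did not use, stood at 49382 CPM (counts per 1000000 UMIs of the group's summed total) in Cre+ and 42784 CPM in Cre- members. It was at 5155 and 4582 CPM in the other neutrophils of the Cre+ and Cre- libraries, and at 505 and 539 CPM in barcodes outside the neutrophil gate. After each cell was thinned to 1000 UMIs, 94.6% of Cre+ and 95.5% of Cre- members held an S100a8 UMI, against 4.07% and 5.64% of barcodes with mostly fibroblast markers, a class that should lack it. Median depths before thinning were 2654 and 2866 UMIs in members and 7417 and 7498 in that class. Thinning left out 21 Cre+ and 24 Cre- members, and without it the shares of members were 96.9% and 97.1%. At 1000 UMIs S100a8 was also found in 58.1% of Cre+ and 55.2% of Cre- other neutrophils, so its detection is not particular to the members.

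Most granule genes of earlier marrow stages were scarce in the members. Mpo, Elane, Prtn3, Ctsg, Ms4a3 and Fcnb, granule genes of promyelocytes, gave 0, 0, 10, 0, 0 and 0 UMIs in Cre+ members and 1, 0, 17, 0, 1 and 0 in Cre- members, out of 1071792 and 1160608 UMIs. The other 4 genes of that list of 10 held most of its 266 Cre+ and 261 Cre- UMIs. Ctsc, a protease that activates granule enzymes and is also expressed outside this stage, had 206 and 195, the receptor gene Kit 41 and 27, Cebpe 7 and 20 and Gfi1 2 and 0. The 12 cell division genes gave 83 UMIs in Cre+ and 86 in Cre- members, of which Tubb5 held 37 and 28, Pcna 33 and 32 and the proliferation marker Mki67 7 and 9. The later granule genes Ngp, Camp and Ltf, made by myelocytes, were confined to few cells: 18 Cre+ and 19 Cre- members held any of them. One Cre+ barcode held 745 of 784 such UMIs, and the highest Cre- barcode held 172 of 316, with the next at 121. These values therefore describe mostly 1 to 2 barcodes and not the members at large.

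**Figure D1:**
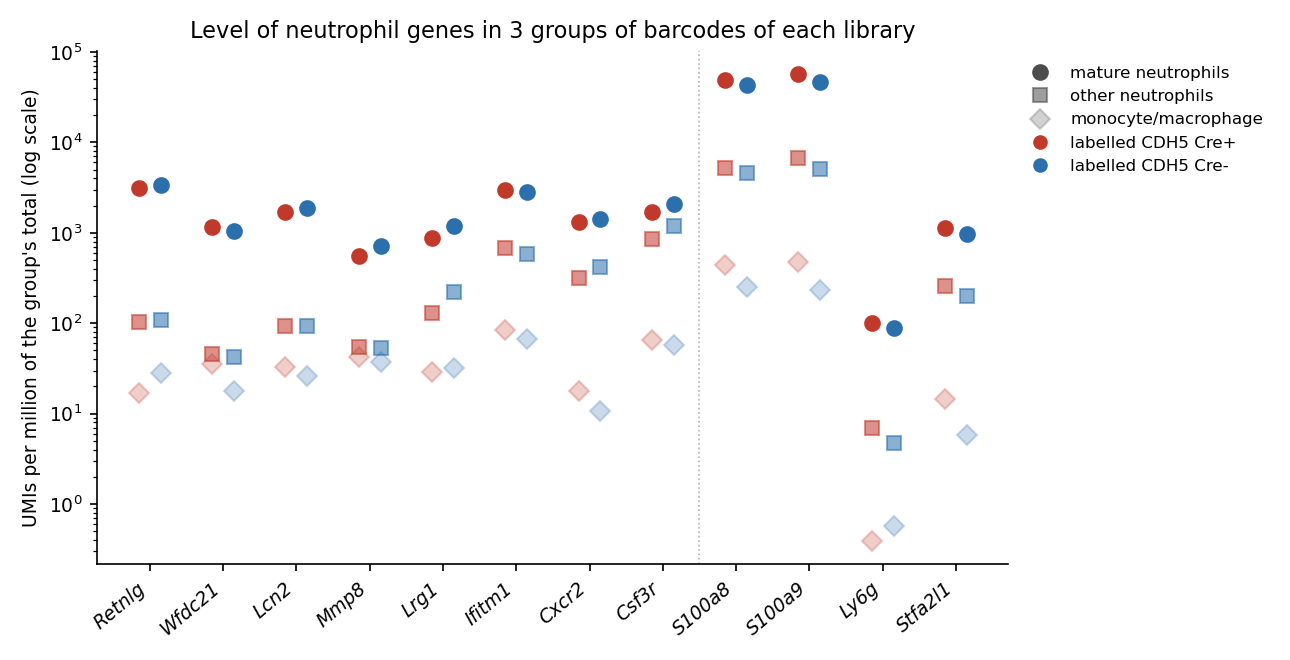
CPM of the group's summed UMIs, on a log scale, for 8 genes that chose the cells (left of the dotted line) and 4 that did not (right), in mature neutrophils (circles), other neutrophils (squares) and barcodes with mostly monocyte or macrophage markers (diamonds) of the library labelled CDH5 Cre+ (red) and the library labelled CDH5 Cre- (blue). Each symbol is 1 library; S100a8 stood at 49382 and 42784 in mature and at 5155 and 4582 in other neutrophils.

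Some members carried RNA of other cells. At least 2 of the monocyte or macrophage markers were detected in 65 Cre+ members (18.2%) and 63 Cre- members (16.5%), and at least 3 in 21 and 23. The 12 markers summed to 893 CPM in Cre+ and 853 CPM in Cre- members, with 1 of the 12, Csf1r by the choice, at 0 in each. Dendritic cell markers reached 2 or more in 3 and 8 members, and T, NK and B cell markers in at most 3 members of a library. Fibroblast markers reached 2 or more in 18 Cre+ and 22 Cre- members. Levels of fibroblast and smooth muscle markers put free RNA at about 4.39% of the Cre+ and 4.03% of the Cre- members' UMIs. One Cre+ barcode held all 750 UMIs of the mast cell genes Tpsb2, Cma1, Cpa3 and Mcpt4, and 1 Cre- barcode 3251 of 3316 haemoglobin UMIs.

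The libraries were of like depth, 54392831 UMIs over 8315 barcodes in the Cre+ library and 48862850 over 7298 in the Cre- library, and shared 17 barcodes, 1 of them among the Cre- members. Median depth was 1507 and 1506 UMIs in other neutrophils and 6122 and 6114 in barcodes outside the gate. Gja1, the connexin 43 gene, gave 146 UMIs (36.1 CPM) in 481 Cre+ barcodes with mostly endothelial markers, against 78 UMIs (20.7 CPM) in 404 Cre- barcodes. The count is thus not lower in the library labelled Cre+, and since the sources used here do not say where the tags lie relative to the deleted part, it does not check the labels; Cre+ and Cre- below mean the libraries so labelled. Members held 5 Gja1 UMIs in the Cre+ and 7 in the Cre- library.

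Mature cells made up a smaller part of the neutrophils in the Cre+ library. They were 29.3% of 1220 gated Cre+ neutrophils (exact interval 26.7% to 31.9%) and 36.6% of 1040 gated Cre- neutrophils (33.7% to 39.6%), a log2 ratio of shares of -0.32 (Katz interval -0.49 to -0.15). Of all kept barcodes they were 4.63% in the Cre+ (4.17% to 5.12%) and 5.65% in the Cre- library (5.11% to 6.23%), a log2 ratio of -0.29. Gated neutrophils as a whole were 15.8% of Cre+ and 15.4% of Cre- barcodes. The minimum of genes per barcode and the digest bear on such shares, and whether the difference exceeds that between pools of mice cannot be told from 1 library per group. The gate against Csf1r and Col1a2 removed 993 Cre+ and 785 Cre- barcodes that passed the neutrophil genes.

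The number of maturity genes per cell formed a slope without a gap. In the Cre+ library 325, 323, 215, 126, 98, 80 and 53 gated neutrophils held 0, 1, 2, 3, 4, 5 and 6 of the 6 genes, against 240, 238, 181, 133, 110, 83 and 55 in the Cre- library. Cells just inside the limit, with 3 genes, had S100a8 at 22680 CPM in the Cre+ and 21158 CPM in the Cre- library, and cells just outside, with 2, at 13854 and 11093 CPM. Ifitm1 was found in 87.7% of Cre+ and 87.1% of Cre- members, Lcn2 in 77.9% and 84.0%, Lrg1 in 77.6% and 82.7%, Retnlg in 67.5% and 58.0%, Wfdc21 in 65.3% and 59.3%, and Mmp8 in 40.9% and 44.6%. Ifitm1 was also found in 40.7% of Cre+ and 35.5% of Cre- other neutrophils, where the other 5 genes were in 5.61% to 21.5%. At 1000 UMIs per cell Lcn2 was found in 56.3% of Cre+ and 66.4% of Cre- members, in 6.81% and 5.63% of other neutrophils, in 7.08% and 8.34% of fibroblast barcodes and in 1.27% and 1.28% of endothelial barcodes (median depths 6937 and 7027.5 UMIs before thinning). Lcn2 was thus found in a larger share of fibroblast than of endothelial barcodes, and its share in fibroblasts is no background level. Retnlg was found in 53.9% of Cre+ and 42.6% of Cre- members at that depth, in 5.45% and 4.505% of other neutrophils and in 0.33% and 0.23% of fibroblast barcodes.

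Cells with more maturity genes were also deeper, with medians of 2178.5, 2436, 2889.5 and 3881 UMIs at 3, 4, 5 and 6 genes in the Cre+ library and 2269, 2579, 3200 and 3742 in the Cre- library, so cells were thinned to 1000 UMIs before the gates were applied. In thinned cells S100a8 was higher at every step, with 5822, 15064, 23158, 37869, 57235, 68098 and 94333 CPM at 0 to 6 maturity genes in the Cre+ library. The Cre- values were 5966, 10922, 20618, 33256, 50124, 62947 and 76212 CPM. The calprotectin gene thus followed the chosen genes at equal depth in both libraries. Hp, encoding the haemoglobin-binding protein haptoglobin, stood at 152, 776 and 1098 CPM with 0, 3 and 5 maturity genes in the Cre+ library, and at 131, 1080 and 1263 CPM in the Cre- library. Pglyrp1, a granule protein that binds bacterial peptidoglycan, stood at 115, 402 and 588 CPM at the same counts in the Cre+ library, and at 189, 720 and 711 CPM in the Cre- library. The highest step rests on 15 thinned Cre+ and 33 thinned Cre- cells.

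In thinned cells Il1rn, Ccl4 and Icam1, genes induced on activation, were lower with 3 or more maturity genes than with none. Il1rn, the interleukin 1 receptor antagonist, stood at 1759, 916 and 549 CPM with 0, 3 and 5 maturity genes in thinned Cre+ cells, and at 1903, 872 and 632 CPM in thinned Cre- cells. The chemokine gene Ccl4 stood at 4607, 2589 and 1039 CPM at those counts in the Cre+ library, and at 2989, 1256 and 632 CPM in the Cre- library. Icam1, an adhesion molecule induced on activated neutrophils, stood at 393 and 252 CPM with 0 and 3 genes in the Cre+ and at 446 and 320 CPM in the Cre- library, and rested on few UMIs above that. With 1 gene, Il1rn was at 2257 and Ccl4 at 5289 CPM in Cre+, and at 1967 and 3161 CPM in Cre-, above their values at 0. Without thinning the order differed. From 0 to 3 genes in Cre-, Il1rn went from 1061 to 1328, Ccl4 from 1755 to 2217 and Icam1 from 223 to 317 CPM. In Cre+ they went from 1175 to 1150, from 3912 to 4489 and from 222 to 134 CPM. Other genes of activation were less regular. Cxcl2 stood at 10298, 15430 and 11020 CPM with 0, 3 and 5 genes in the Cre+ library, and at 7497, 7336 and 4684 CPM in the Cre- library. Nfkbia, the NF-kB inhibitor gene, stood at 2398, 3299 and 1941 CPM in the Cre+ and at 2720, 3416 and 1842 CPM in the Cre- library. Il1b, encoding interleukin 1 beta, was at 3550, 6888 and 5255 CPM with 0, 3 and 5 genes in the Cre+ library, and at 3983, 5568 and 5211 CPM in the Cre- library. The matrix protease gene Mmp9 was at 414, 1224 and 1039 CPM in the Cre+ and 640, 1128 and 1842 CPM in the Cre- library. Macrophage RNA was highest in cells with no maturity gene, where Fn1 stood at 1356 CPM in the Cre+ and 1480.0 CPM in the Cre- library, against 234 and 88.0 CPM with 3 genes, and Mrc1 at 393 and 349 CPM, against 28.0 and 48.0 CPM; its part in these slopes was not tested.

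**Figure D2:**
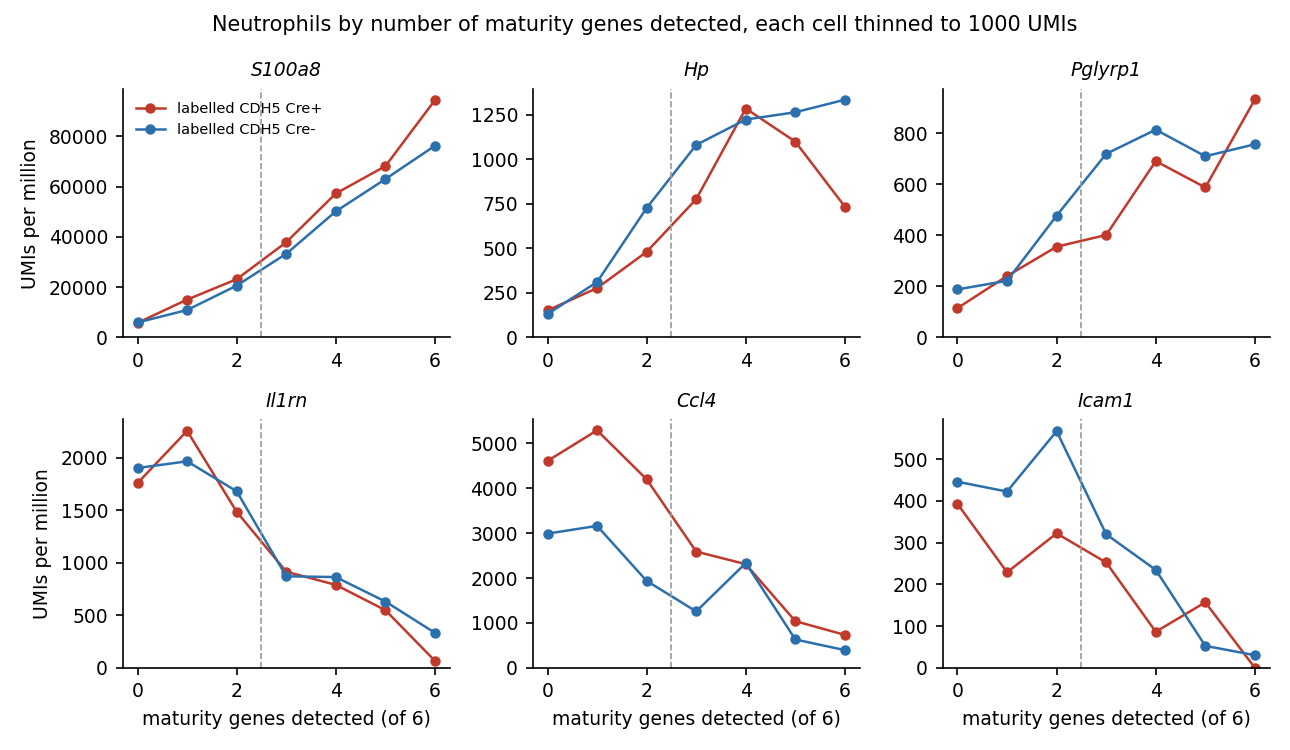
CPM in gated neutrophils against the number of maturity genes detected, every cell thinned to 1000 UMIs, in the library labelled CDH5 Cre+ (red) and the library labelled CDH5 Cre- (blue); cells right of the dashed line are mature neutrophils. S100a8, Hp and Pglyrp1 are higher at 3 to 6 genes than at 0, and Il1rn, Ccl4 and Icam1 lower, the last resting on few UMIs at high counts.

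Set against the other neutrophils of the same library, the members held more RNA of granule genes and of S100a8 and S100a9. Genes of the choice were left out, and a gene counted as higher or lower where the ratio was at least 1.5-fold (0.58 on the log2 scale) the same way in both libraries. Of 8124 genes with 20 or more UMIs over both groups of neutrophils in each library, 462 were higher (5.69%) and 3425 lower (42.2%). The median gene itself was at a log2 ratio of -0.60 in the Cre+ and -0.64 in the Cre- library. The 7 S100 genes of the lists alone took 116590 CPM in Cre+ and 99662 CPM in Cre- members, against 18410 and 15786 CPM in other neutrophils. Relative to that median, 1642 genes (20.2%) were higher and 1698 (20.9%) lower. Members were also deeper than other neutrophils, so ratios are given as well after each cell was thinned to 1000 UMIs and gated anew, which left 254 Cre+ and 277 Cre- members and 617 and 512 other neutrophils. Of 3991 genes tested there, 157 (3.93%) were higher and 740 (18.5%) lower, with medians of -0.26 and -0.23.

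The other neutrophils were a mixed group. At least 3 monocyte or macrophage markers were detected in 21 Cre+ and 23 Cre- members, against 166 of 863 Cre+ and 138 of 659 Cre- other neutrophils. At least 3 dendritic markers were detected in 0 and 3 members, against 25 and 29 other neutrophils. The fibronectin gene Fn1 was at 272 CPM in Cre+ and 318 CPM in Cre- members, against 2012 and 3479 CPM in other neutrophils. H2-Ab1, a class II antigen-presenting gene, had 1 and 29 UMIs in all members of the libraries and was at 434 and 283 CPM in other neutrophils. The part of these cells in the ratios below was not tested other than by leaving them out. Ratios against other neutrophils and between the libraries were repeated without barcodes that held 2 or more markers of another cell type. That left 245 Cre+ and 276 Cre- members and 511 and 389 other neutrophils. Of 4741 genes tested there, 176 (3.71%) were higher and 698 (14.7%) lower, with medians of -0.25 and -0.22.

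The highest ratios by the ranking were those of Ngp, Ly6g, S100a8, S100a9, Stfa1, Rufy4, Tgm1, Cd177, Pglyrp1, Stfa2l1, Hp and Mrgpra2b. Ngp was 1 to 2 barcodes, as above, and 45.2% of the Stfa1 UMIs of the Cre- members came from 1 barcode. Ly6g, the surface antigen by which mouse neutrophils are sorted, was at 99.8 CPM in Cre+ and 87.9 CPM in Cre- members, against 6.90 and 4.72 CPM in other neutrophils, log2 ratios of 3.86 and 4.22, or of 2.42 and 1.32 after thinning. It was detected in 12.6% of Cre+ and 11.5% of Cre- members. S100a8 had log2 ratios of 3.26 and 3.22 and S100a9 of 3.09 and 3.18, and without cells with other markers 2.18 and 2.31, and 2.04 and 2.30. After thinning they were at 1.88 and 1.957, and at 1.87 and 1.89. Cd177, a neutrophil surface protein, had 2.11 and 2.21, and Hp, haptoglobin, 2.20 and 2.05. Mrgpra2b, a neutrophil receptor of the Mas-related family, had 2.64 and 1.97. Without cells with other markers all 12 stayed above 0 in both libraries, with Stfa2l1 at 0.91 and 1.19 and Mrgpra2b at 1.71 and 0.79. After thinning all 12 were above 0 as well, with Stfa2l1 at 1.03 and 0.61, Mrgpra2b at 1.71 and 0.97 and Stfa1 at 2.32 and 0.038.

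Stfa1, Stfa2l1 and Cstdc4, stefin protease inhibitors, have near copies side by side on chromosome 16, as Mrgpra2a and Mrgpra2b do on chromosome 7, so that reads may be split among copies and single values of these genes are uncertain. Ranked without cells with other markers, the list also held Ifitm6, Wfdc17, Mcemp1, Cstdc4, Ifitm2 and Hmgb2, the last a chromatin protein. Ifitm6, an interferon-inducible membrane protein of myeloid cells, then had log2 ratios of 2.23 in the Cre+ and 3.06 in the Cre- library.

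Among the gene lists, granule proteins stood out by count. Outside the choice, 10 of 16 were higher in members in both libraries (62.5%, against 5.69% of all genes) and 1, Cybb, was lower. Medians were 1.31 in the Cre+ and 1.13 in the Cre- library, against -0.60 and -0.64 over all genes. Relative to the median gene 14 of 16 were higher (87.5%, against 20.2%) and none lower. Without cells with other markers 9 of 16 were higher (56.25%, against 3.71%) and none lower. After thinning 6 of 14 were higher (42.9%, against 3.93%) and 1 lower. Mmp9, gelatinase B of tertiary granules, had 1.43 and 1.35, but 0.46 and 0.43 without cells with other markers and 0.69 and 0.29 after thinning. Slpi, a protease inhibitor, had 1.53 and 1.46, then 0.81 and 0.66, and 0.97 in each after thinning. Lyz2, lysozyme, which macrophages share, turned with those cells: -0.07 and -0.75 with them, 1.65 and 0.62 without, and -0.51 and -0.60 with them after thinning.

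Of 29 receptors outside the choice, 12 were higher (41.4%, against 5.69% of all genes) and 2 lower in both libraries. Relative to the median gene 24 were higher (82.8%, against 20.2%) and 2 lower. After thinning, though, 1 of 28 was higher (3.57%, against 3.93% of all genes) and 3 were lower (10.7%, against 18.5%). The higher count of receptors was therefore not seen at equal depth. Fpr1 and Fpr2, receptors for formylated bacterial peptides, had log2 ratios of 1.41 and 1.60, and of 1.41 and 1.32. Trem1, which amplifies inflammatory signals, had 1.18 and 1.40. Without cells with other markers 4 of 28 receptors were higher (14.3%, against 3.71%) and none lower, and Fpr1 was at 0.27 and 0.69, and Trem1 at 0.19 and 0.51. After thinning Fpr1 was at 0.45 and 0.58, Fpr2 at 0.42 and 0.85 and Trem1 at 0.35 and 0.55. Adhesion and motility genes were higher in 7 of 17 (41.2%, against 5.69%) and lower in none. Relative to the median gene 11 were higher (64.7%, against 20.2%). The P-selectin ligand Selplg was at 1.30 and 1.37 and the GTPase Rac2 at 1.14 and 1.26, or after thinning at 1.09 and 0.81, and at 0.77 and 0.66. There too the count without cells with other markers was smaller, 2 of 17 (11.8%, against 3.71%), as it was after thinning, 3 of 17 (17.6%, against 3.93%). Without such cells 1 was lower, Icam1 at -1.70 in the Cre+ and -1.41 in the Cre- library.

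Chemokine and cytokine genes were not higher as a group. Of 18, 2 were higher (11.1%, against 5.69% of all genes) and 6 lower (33.3%, against 42.2%) in both libraries. Relative to the median gene 4 were higher and 4 lower (22.2% each, against 20.2% and 20.9%), so that these counts are near those of all genes. Without cells with other markers none of 15 was higher and 8 were lower (53.3%, against 14.7%), and after thinning 1 of 13 was higher and 7 were lower (53.8%, against 18.5%). Without cells with other markers Ccl4, a chemokine for monocytes and T cells, had log2 ratios of -0.94 and -0.60. The macrophage growth factor gene Csf1 then had -0.99 and -1.18, and Tnf -1.66 and -1.09. After thinning Ccl4 was at -1.20 and -0.98, Csf1 at -1.29 and -1.37 and Tnf at -1.86 and -1.27. Cxcl2, the main Cxcr2 ligand made by neutrophils, was at 12711 CPM in Cre+ and 7384 CPM in Cre- members, with log2 ratios to other neutrophils of 0.61 and 0.39, of -0.03 and -0.36 without such cells and of -0.33 and -0.39 after thinning. Il1b was at 5783 CPM in Cre+ and 4804 CPM in Cre- members, with 1.03 and 0.83, then 0.27 and -0.02, and 0.13 and 0.092 after thinning. Of 21 NF-kB response genes 1 was higher (4.76%, against 5.69% of all genes) and 2 were lower (9.52%, against 42.2%). Relative to the median gene 8 were higher and 1 lower (38.1% and 4.76%, against 20.2% and 20.9%). Medians were 0.07 and -0.04, then -0.42 and -0.48 without such cells. After thinning none of 19 was higher and 7 were lower (36.8%, against 18.5%).

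**Figure D3:**
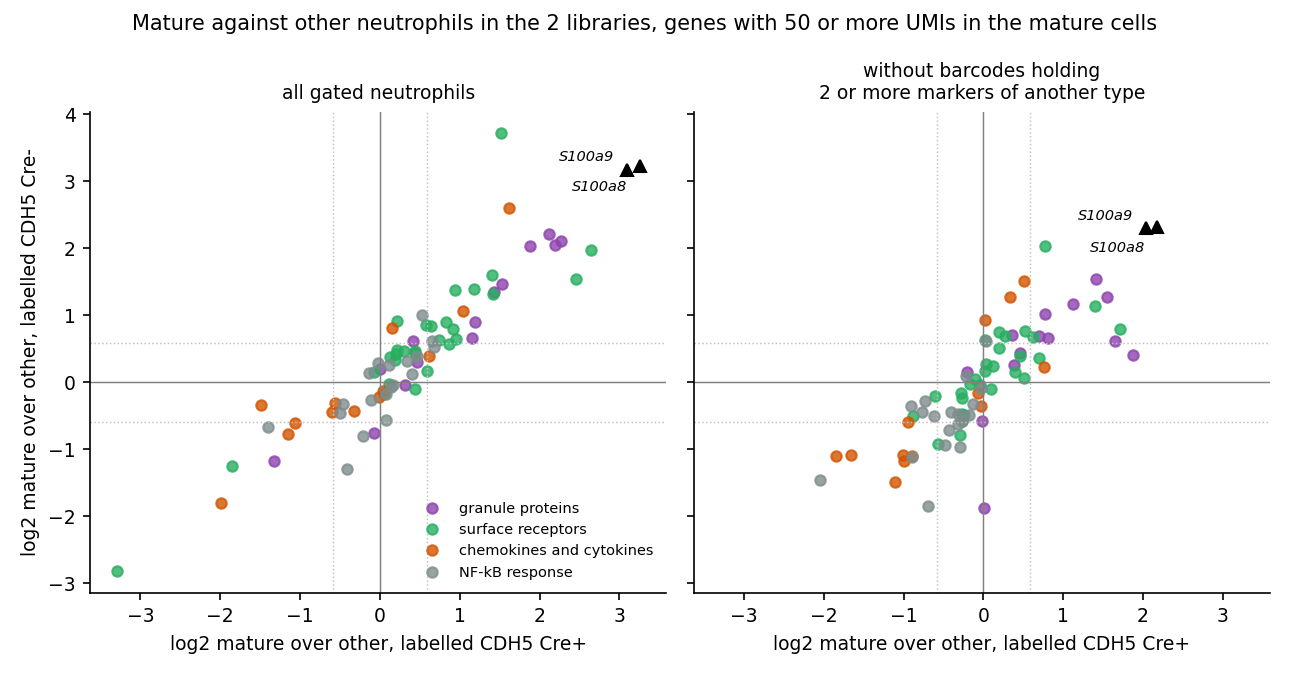
Log2 ratio of mature over other neutrophils in the library labelled CDH5 Cre+ (x axis) and the library labelled CDH5 Cre- (y axis) for genes of 4 lists and S100a8 and S100a9, over all gated neutrophils (left) and without barcodes with 2 or more markers of another type (right). Dotted lines mark 1.5-fold; genes of the choice and Ngp, Camp and Ltf are not drawn, and S100a8 is at 3.26 and 3.22 on the left and 2.18 and 2.31 on the right.

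The lowest ratios by the ranking were those of Mgl2, Flrt3, Htr7, Arg1, Adgrg6, Kcnk13, Cd209a, Ccl12, Sdc3, Areg, Klrd1 and Cmtm3. Mgl2 and Cd209a are lectins of dendritic cells and macrophages, and Arg1, arginase, is high in macrophages. Arg1 had 66 UMIs in Cre+ and 87 in Cre- members, log2 ratios of -4.02 and -4.40 (-2.39 and -3.78 after thinning), and was at 999 and 1583 CPM in other neutrophils and 1126 and 1186 CPM outside the gate. Of the Arg1 UMIs of the Cre+ members, 71.2% came from 1 barcode. Mgl2 gave 0 UMIs in Cre+ and 1 in Cre- members. Ranked without cells with other markers, none of these 12 was in the list, and the lowest were Esr1, Slc20a1, Itpr2, Havcr2, Ergic1, Eya3, Plekhm3, Agpat4, Tgfbr1, Icam1, Fnip2 and Trpm7. Havcr2, the inhibitory receptor TIM-3, then had -1.99 in the Cre+ and -1.47 in the Cre- library, and Slc20a1, a phosphate transporter, -2.59 and -1.96. The transforming growth factor beta receptor gene Tgfbr1 had -1.47 and -1.42, and 65.2% of the Esr1 UMIs of the library with more were in 1 member.

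Survival genes were mixed. Of 18, 2 were higher in both libraries (11.1%, against 5.69% of all genes) and 3 were lower (16.7%, against 42.2%). Those higher were Bcl2l1, an inhibitor of apoptosis, at 0.69 and 1.07 and Gadd45a, a stress response gene, at 0.81 and 1.28. Relative to the median gene 4 were higher and 1 lower (22.2% and 5.56%, against 20.2% and 20.9%). After thinning Bcl2l1 was at 0.099 and 0.38 and Gadd45a at 0.37 and 0.42, with none of 17 higher and 5 lower (29.4%, against 18.5%). Without cells with other markers none of 17 was higher and 6 were lower (35.3%, against 14.7%), Bax, Bcl2a1a, Bcl2a1b, Bcl2a1d, Gadd45b and Pmaip1; the 3 Bcl2a1 genes are near copies. The survival factor gene Mcl1, with most UMIs of the list, had 0.48 and 0.58 with all cells and 0.21 and 0.23 without. S100a4 and S100a10 were the S100 genes lower in members, at -2.03 and -2.52, and at -2.16 and -2.61.

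Ribosomal protein genes were lower in members. They were lower in 79 of 83 (95.2%, against 42.2% of all genes) and higher in none, with medians of -1.25 and -1.27. Relative to the median gene 41 of 83 were lower (49.4%, against 20.9%), without cells with other markers 16 of 81 (19.8%, against 14.7%), with medians of -0.32 and -0.57, and after thinning 41 of 80 (51.25%, against 18.5%). Nuclear respiratory chain genes were lower in 55 of 81 (67.9%, against 42.2%), with medians of -0.81 and -1.07, but relative to the median gene in 22 (27.2%, against 20.9%). Without cells with other markers 1 of 52 was lower (1.92%, against 14.7%), with medians of 0.06 and 0.01, and after thinning 4 of 45 (8.89%, against 18.5%), so that the lower count of this list was not seen there. Glycolysis genes were not lower as a group, with 6 of 24 higher and 6 lower (25% each, against 5.69% and 42.2% of all genes). Without cells with other markers 4 of 20 were higher (20%, against 3.71%) and none lower. After thinning 1 of 20 was higher and 1 lower (5% each, against 3.93% and 18.5%), so the larger count of higher genes was not seen there. Medians were 0.01 and -0.06 with all cells and 0.36 and 0.30 without cells with other markers. Pyruvate kinase Pkm was at 0.06 and -0.01 with all cells and at 0.36 and 0.24 without. The transcription factor gene Cebpb, at 3900 CPM in Cre+ and 4088 CPM in Cre- members, had log2 ratios of 0.63 and 0.57, and Spi1, encoding PU.1, of 0.70 and 0.98, or after thinning of 0.38 and 0.25, and of 0.59 and 0.54.

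Against all barcodes outside the neutrophil gate, 1135 of 15849 genes (7.16%) were at least 4-fold higher in members in both libraries. The highest by the ranking were Ngp, Stfa1, S100a9, S100a8, Mrgpra2b, Ankrd22, Ly6g, Stfa2l1, Slco4c1 and Amer2. Mrgpra2b was at 325 CPM in Cre+ and 232 CPM in Cre- members against 3.99 and 2.95 CPM outside the gate, log2 ratios of 6.36 and 6.30. Slco4c1, an organic anion transporter, had 6.10 and 6.32 and Amer2, a membrane adaptor of Wnt signalling, 6.02 and 6.01. Amer2 and Slco4c1 also separated members from other neutrophils less than from other cells, with log2 ratios of 1.44 and 1.19, and of 1.85 and 1.69. The promoters of 5 of these 10 genes held the C/EBP motif (Ankrd22, Ly6g, Ngp, S100a9 and Stfa1) and 3 the PU.1 motif (Ly6g, S100a8 and Stfa1), against 9.56% and 10.6% of all promoters.

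Between the libraries, interferon response genes had the highest median ratio of the lists with 5 or more tested genes, higher in Cre+ members. Of 4204 genes with 50 or more UMIs over both libraries, 315 (7.49%) were at least 1.5-fold higher in Cre+ and 419 (9.97%) lower, and the median gene was at -0.08. Of 38 tested genes of the interferon response list 25 were higher and none lower, with a median log2 ratio of 0.81; 37 were above 0 and Ifi47 was at -0.22. Without barcodes with other markers 22 of 31 tested were higher, and without each gene's highest barcode, an alternative added after the data were seen, 23 were higher. After thinning 11 of 20 tested were higher. The share of all genes past the limit is not given for these alternatives. The summed list took 11745 CPM in Cre+ and 7676 CPM in Cre- members, a log2 ratio of 0.61 (0.57 to 0.65).

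The 12 highest ratios by the ranking were those of Ifit3b, Cmpk2, Isg15, Ifit3, Rsad2, Oasl1, Cd274, Isg20, Mrgpra2a, Slfn8, Ptgs2os2 and Ifih1, of which Cd274, Isg20, Mrgpra2a and Ptgs2os2 are not on the interferon list. Isg15, a ubiquitin-like modifier, had 610 UMIs in Cre+ and 209 in Cre- members, or 569 and 180 CPM, a log2 ratio of 1.66 (1.43 to 1.89), and was detected in 35.0% and 20.7% of them. Rsad2, encoding the antiviral enzyme viperin, had 1092 and 427 UMIs and a ratio of 1.47 (1.31 to 1.63), or 1.02 without its highest barcode and 0.46, below 1.5-fold, after thinning to 1000 UMIs. Cmpk2, a mitochondrial nucleotide kinase next to Rsad2 in the genome, had 1.86 (1.44 to 2.29). Ifit3 and Ifit3b, at 1.61 and 2.03, are close copies that reads can be split between. The checkpoint ligand gene Cd274 had 109 and 46 UMIs, a ratio of 1.36 (0.85 to 1.89). After thinning Isg15 was at 1.15, Cmpk2 at 1.18, Ifit3 at 1.39 and Cd274 at 1.37. Ifih1, at 1.14 before thinning, was then at 0.13, over 21 UMIs in each library.

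The genes of the list differed among themselves. Slfn4, Slfn1 and Trim30a, the 3 with most UMIs, had log2 ratios of 0.35, 0.05 and 0.11. Interferon-induced transmembrane genes outside the choice had 0.55 for Ifitm3, 0.36 for Ifitm2 and -0.53 for Ifitm6. Cxcl10, an interferon-induced chemokine of another list, had 200 UMIs in Cre+ and 24 in Cre- members, a ratio of 3.17 (2.56 to 3.85), in 5.32% and 1.57% of them, of 2.56 without each library's highest barcode and of 1.98 after thinning, over 29 and 8 UMIs. The interferon response motif was found in 8 of the 12 promoters of the highest genes and in 21 of 36 promoters of the list, against 7.13% of all promoters; in Isg15, printed above, its 3 matches start 78, 72 and 66 bases before the start.

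Many cells contributed to the difference. After thinning to 1000 UMIs, at least 10 UMIs of the list were found in 118 of 336 Cre+ members (35.1%, exact interval 30.0% to 40.5%) and 90 of 357 Cre- members (25.2%, 20.8% to 30.0%), and at least 20 in 18.8% and 11.2%. The median was 6 UMIs in Cre+ and 4 in Cre- members. The 34 Cre+ and 36 Cre- members with most UMIs of the list held 41.2% and 41.5% of the list's UMIs. Unthinned, 67.5% of Cre+ and 64.8% of Cre- members held at least 10. By the mean of single-cell CPM, which weighs shallow cells like deep ones, 16 genes of the list were at least 1.5-fold higher.

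The difference was larger in the other neutrophils. There the summed list stood at 15338 CPM in the Cre+ and 5919 CPM in the Cre- library, a log2 ratio of 1.37. Over 46 tested genes of the list the median log2 ratio was 1.46. Of these genes 43 were at least 1.5-fold higher, and the share of all genes past that limit was not counted in other neutrophils. The ratio in members minus that in other neutrophils was -0.76 (counting SE 0.026), which cannot be tested with 1 library per group; without cells with other markers the ratios were 0.66 in members and 1.19 in other neutrophils. Within the Cre+ library the list was thus lower in members than in other neutrophils, and within the Cre- library higher. Outside the neutrophils the list was higher in the Cre+ library in 6 of 7 cell classes. Monocyte and macrophage barcodes stood at 8639 CPM in the Cre+ and 4518 CPM in the Cre- library, dendritic barcodes at 4792 and 3582, fibroblast barcodes at 3545 and 1650, T and NK barcodes at 2223 and 1998, endothelial barcodes at 1799 and 1394, and smooth muscle barcodes at 1378 and 449 CPM. B cell barcodes, 45 and 35 in number, stood at 1575 CPM in the Cre+ and 2460 CPM in the Cre- library.

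By the number of maturity genes, the summed interferon list ran opposite ways in the libraries. In cells thinned to 1000 UMIs it stood at 15969, 15032, 11277, 13701, 10321, 8039 and 10800 CPM with 0 to 6 maturity genes in the Cre+ library, and at 7080, 7317, 8248, 7864, 9111, 9711 and 7455 CPM in the Cre- library. At each count from 3 to 6 the list was thus lower than at 0 and 1 in the Cre+ library and higher than at 0 and 1 in the Cre- library. Without thinning this held too, with 16505 and 14875 CPM at 0 and 1 genes and 11103 to 13394 CPM at 3 to 6 in the Cre+ library, and 5678 and 5174 CPM against 6392 to 8875 CPM in the Cre- library.

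Single genes of the list were less regular. Rsad2 stood at 1628, 1297, 774, 776, 630 and 373 CPM with 0, 1, 2, 3, 4 and 5 maturity genes in thinned Cre+ cells, and at 211, 250, 350, 304, 691 and 500 CPM in thinned Cre- cells. Without thinning its Cre+ values had no such order, with 1094, 1093, 1631, 797, 746 and 1773 CPM at these counts. Isg15 stood at 660, 659, 390, 636, 420 and 196 CPM in thinned Cre+ cells, and at 85.7, 139, 159, 168, 247 and 263 CPM in thinned Cre- cells. Ifit3 stood at 194, 289, 119, 206, 74.1 and 118 CPM in thinned Cre+ cells, and at 51.4, 11.1, 89.2, 48.0, 86.4 and 26.3 CPM, with no slope, in thinned Cre- cells. With 5 genes the summed list was lower in the Cre+ library after thinning, over 51 and 38 cells, and higher without it, at 13394 and 7564 CPM over 80 and 83 cells.

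**Figure D4:**
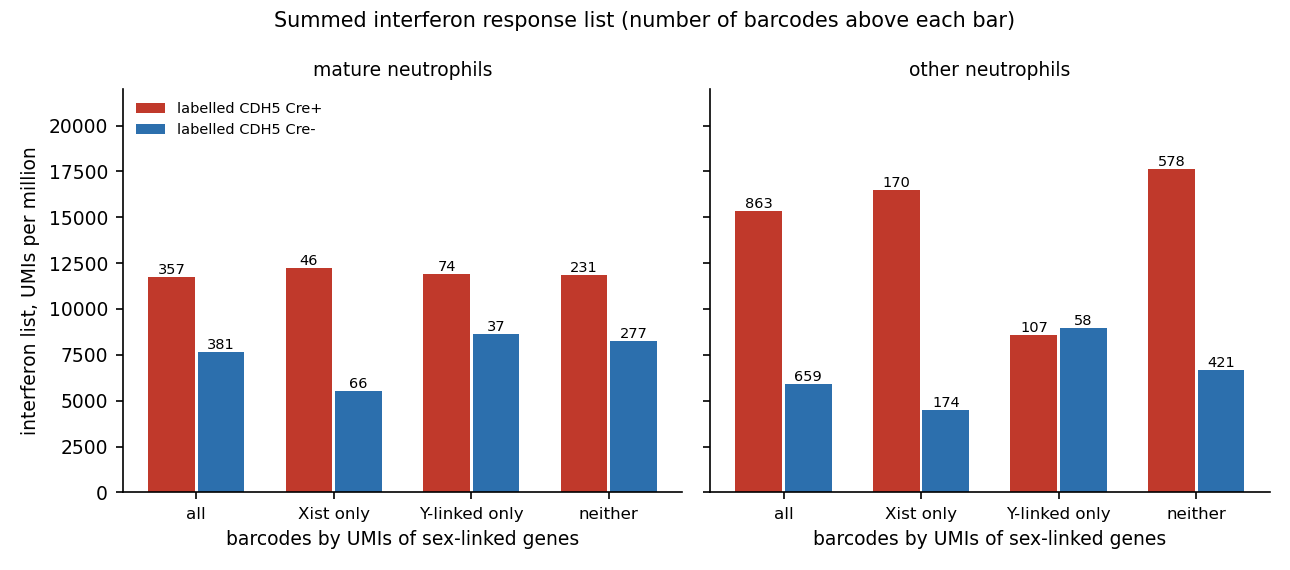
Summed CPM of the interferon response list in mature (left) and other (right) neutrophils of the library labelled CDH5 Cre+ (red) and the library labelled CDH5 Cre- (blue), over all barcodes and by the sex-linked transcripts they held; numbers above bars count barcodes, and each bar is 1 library, with no replicate error. Among barcodes with Y-linked UMIs only, mature neutrophils stand at 11884 CPM in Cre+ and 8625 CPM in Cre-, and other neutrophils at 8591 and 8974 CPM.

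The libraries also differed in the sex of their cells. Xist without Y-linked UMIs was found in 46 Cre+ and 66 Cre- members, Y-linked UMIs without Xist in 74 and 37, both in 6 and 1, and neither in 231 and 277. Both pools thus held cells of male and female mice, with more Y-linked cells in the Cre+ pool. Members with Xist stood at 12241 CPM of the interferon list in the Cre+ and 5514 CPM in the Cre- library, a log2 ratio of 1.15, and members with Y-linked UMIs at 11884 and 8625 CPM, a ratio of 0.46. In other neutrophils the same ratios were 1.88 and -0.06. The part of sex, of single mice within a pool and of genotype in these differences cannot be told apart.

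Ribosomal protein and respiratory chain genes were shifted too. Of 81 ribosomal protein genes 21 were at least 1.5-fold higher in Cre+ members and none lower, with a median log2 ratio of 0.47. Of 55 nuclear respiratory chain genes 13 were higher and none lower, with a median of 0.40. Over all tested genes 7.49% were higher and 9.97% lower. In members with Y-linked UMIs the ribosomal median was -0.14. In other neutrophils the ribosomal median was 0.39 and the respiratory chain median 0.13. Ferritin genes, which store iron, were at 0.43 for Fth1 and 0.53 for Ftl1, below 1.5-fold, and at 0.62 and 0.66 after thinning.

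Granule, receptor and activation lists had medians near that of all genes. Granule proteins had a median of -0.01 over 17, with 5 higher (Camp, Ltf, Lyz2, Ngp and Slpi) and 1 lower, Olfm4 at -0.63. After thinning Olfm4 was at 0.03, over 15 Cre+ and 16 Cre- UMIs. Without each library's highest barcode Ngp was at -2.15, Ltf at 1.70 and Camp at the floor of 3 UMIs in both. Slpi had 1290 UMIs in Cre+ and 836 in Cre- members, a ratio of 0.74 (0.61 to 0.87), and Lyz2 1536 and 881, a ratio of 0.92. Receptors had a median of -0.06 over 29, with Mrgpra2a higher at 1.26 and Ltb4r1, the leukotriene B4 receptor, at -0.64 and Fcgr2b, the inhibitory Fc receptor, at -0.82 lower, though at -0.43 and -0.46 after thinning. The NF-kB list had a median of -0.12 over 19 with Cd274 alone past 1.5-fold, and the G-CSF and STAT3 list -0.07 over 9 with none.

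Chemokine genes differed gene by gene in the members. Cxcl2 had 13624 UMIs in Cre+ and 8570 in Cre- members, a log2 ratio of 0.78 (0.74 to 0.82), Ccl4 3345 and 2313, a ratio of 0.65, and Ccl3 1278 and 907, a ratio of 0.61. Ccl6, a chemokine of myeloid cells, had 1760 and 3123 UMIs, a ratio of -0.71 (-0.80 to -0.63). In other neutrophils the ratios of Cxcl2, Ccl4, Ccl3 and Ccl6 were 0.56, 0.90, 0.51 and -0.25. Adhesion genes had a median of -0.23 over 17, with Selplg at -0.59 and Icam1 at -0.62 lower (-0.35 and -0.44 after thinning) and none higher. Il18, a cytokine of the interleukin 1 family, had 70 and 23 UMIs, a ratio of 1.72. Among myeloid transcription factors Nfe2, at -0.75, and Cebpg, at -0.79, were lower and none was higher, and of the NADPH oxidase and eicosanoid lists no gene was past 1.5-fold.

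The 12 lowest ratios were those of Rgs3, Hsp90aa1, Dgkz, Cdk19, Havcr2, Acadl, Gmeb1, Csnk1e, Zfp53, Tle3, Limd2 and AI467606. Rgs3, a regulator of G protein signalling, had 35 UMIs in Cre+ and 127 in Cre- members, a log2 ratio of -1.74, and was detected in 8.40% and 24.4% of them. Hsp90aa1, a heat shock chaperone, had 287 and 1012 UMIs, a ratio of -1.70, of which the highest 2 Cre- barcodes held 258 and 234; without each library's highest barcode the ratio was -1.60, and after thinning it was -0.62. The diacylglycerol kinase gene Dgkz had 44 and 110 UMIs, a ratio of -1.21, and Tle3, a corepressor, 113 and 242, a ratio of -0.98. After thinning Rgs3 was at -1.58, Dgkz at -0.61, Tle3 at -0.53 and Havcr2 at -0.25, the last 2 below 1.5-fold. Cdk19 was then at -0.44, also below 1.5-fold, and Limd2 at 0.21, on the other side of 0, over 17 Cre+ and 16 Cre- UMIs. None of the 10 promoters available for the 12 lowest genes held the interferon response motif, against 7.13% of all promoters, so that this count is near that share.

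**Figure D5:**
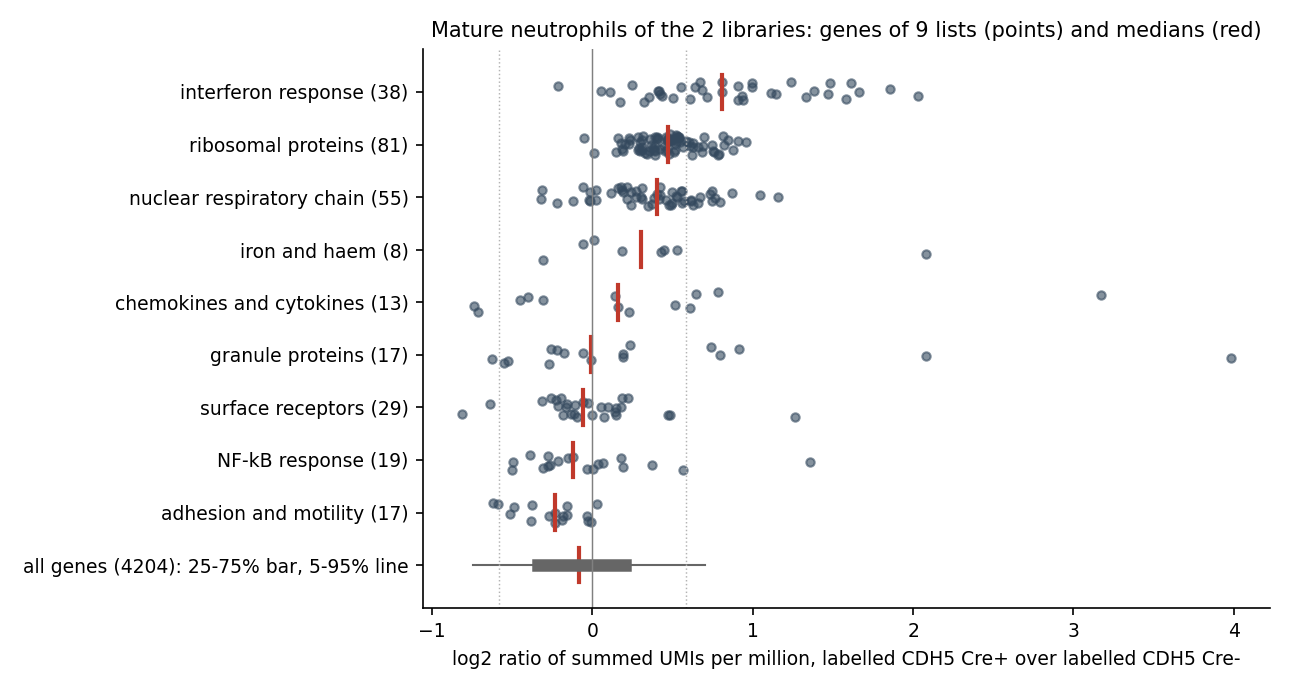
Log2 ratio of the library labelled CDH5 Cre+ over the library labelled CDH5 Cre- in mature neutrophils for genes (points) of 9 lists, with the number of genes beside each name and medians in red; the lowest line gives all 4204 genes, with 25% to 75% as a bar and 5% to 95% as a line. Dotted lines mark 1.5-fold; the median is 0.81 for the interferon response and -0.08 for all genes.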

How the data were processed

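The deposited UMI counts per barcode and gene (10x 3′ chemistry, 1 matrix per library) were used as the authors gave them: Cell Ranger 8.0.1 per the file headers, with STAR, whose version is not given in the sources used here, and mm10 per the submitters' processing notes. Barcodes were filtered and gated by the rule in the report. UMIs were summed per library and cell group and scaled to CPM. Ratios are log2 with exact conditional binomial intervals, with counts under 3 set to 3, and shares have Clopper-Pearson intervals; PCR and cell-to-cell spread are not in them. Doublets were not removed (an alternative with Scrublet in scanpy 1.11.5 took out 476 Cre+ and 363 Cre- barcodes, 8 members each). The members, lists and rankings were chosen with earlier results of these data known. Ranked genes are the 12 highest and lowest ratios (10 against non-neutrophils) with a minimum of 50 UMIs, or 100 between libraries, and named list genes are the 4 with most UMIs and those past 1.5-fold where at most 6. Mitochondrial, ribosomal, haemoglobin, sex-linked, unnamed and rule genes were not ranked. Scripts were tested on simulated counts. Alternatives were other gates, depths, scalings, minimums, fold limits, sex-linked subsets and free RNA subtraction. Python 3.11.15, NumPy 2.4.6, SciPy 1.17.1 and pandas 2.3.3 were used.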

Additional observations from a re-analysis of the deposited data

Results flagged for a closer look

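In 8 values the Cre+ over Cre- log2 ratio lay on opposite sides of 0, at 0.58 or beyond for single genes, in mature and in other neutrophils, and none of these differences was tested. Cma1 was at 4.76 in mature and -6.12 in other neutrophils, Cpa3 at 4.48 and -5.38, Mcpt4 at 4.01 and -6.18, and Tpsb2 at 5.34 and -5.42. One Cre+ mature barcode held all 750 UMIs of these 4 mast cell protease genes, and without each library's highest barcode their ratio in mature neutrophils was 0.11, the value of the floor of 3 UMIs in both libraries. Hba-a1 was at -1.78 in mature and 0.95 in other neutrophils and Hba-a2 at -1.92 and 0.69, and 1 Cre- mature barcode held 3251 of 3316 haemoglobin UMIs. Klf4, a transcription factor of macrophages and activated myeloid cells, was at 0.72 in mature and -0.59 in other neutrophils, and at 0.55 in mature neutrophils without the highest barcodes. The summed interferon list in cells with Y-linked UMIs and no Xist was at 0.46 in 74 Cre+ against 37 Cre- mature neutrophils and at -0.06 in 107 against 58 other neutrophils.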

How the results depend on the processing

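No paired analysis was possible because each genotype has 1 library, and no result has a test. The lower share of mature cells in the Cre+ library kept its sign in every alternative run. As a percentage of gated neutrophils (29.3 in Cre+, 36.6 in Cre-) it was 46.9 and 54.0 with at least 2 maturity genes, 18.9 and 23.9 with at least 4, 34.1 and 41.0 with at least 500 genes per barcode and 32.4 and 41.5 without cells with other markers. Of kept barcodes (4.63 and 5.65) it was 7.42 and 8.34, 3.00 and 3.68, and 3.38 and 4.34 for the same settings in that order without the 500 gene minimum, and 3.67 and 4.58 after thinning. Genes higher in Cre+ members (315) numbered 80 at 2-fold, 206 without cells with other markers, 198 in cells with Xist, 149 in cells with Y-linked UMIs, 163 with the minimum doubled, 1304 with a minimum of 10 UMIs and 102 after thinning. Genes lower (419) numbered 76 at 2-fold, 247 with Xist, 171 with Y-linked UMIs, 218 with the minimum doubled, 1297 with 10 UMIs and 182 after thinning. Interferon genes higher in Cre+ (25) numbered 12 at 2-fold, 16 by mean single-cell CPM, 14 with Xist, 7 with Y-linked UMIs and 11 after thinning. With cells thinned to 2000 UMIs, 20.4% of Cre- members held at least 10 UMIs of the list per 1000.

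Genes higher in mature than in other neutrophils (462) numbered 168 at 2-fold, 176 without cells with other markers, 224 by mean single-cell CPM, 1642 with median-of-ratios scaling and 157 after thinning, and genes lower (3425) numbered 2203, 698, 1698 and 740 at 2-fold, without such cells, with median-of-ratios scaling and after thinning. At 2-fold, 3190 genes were higher than in non-neutrophils (1135 at 4-fold). Single genes reversed: between libraries Camp -3.17, Ltf -3.27, Ngp -3.91 and Icam1 1.58 in cells with Y-linked UMIs, Ngp -5.36 and Tle3 0.026 in cells with Xist, and Ngp -0.24 after thinning; against other neutrophils Cxcl2 in Cre+ -0.031 without cells with other markers and -0.33 after thinning, and Il1b in Cre- -0.016 without them. The causes were not tested. A further 21 of 855 log2 values changed sign, all below 1.5-fold as reported: 19 against other neutrophils, for Ccl3, Ccl4, Cd274, Cxcl2, Cxcr4 and Icam1, 7 of them with median-of-ratios scaling, and, in Cre+ over Cre- members with Y-linked UMIs, S100a8 at -0.12 and the ribosomal protein median at -0.14. The remaining log2 values kept their sign. Depth limits genes with few UMIs most.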
